A study of Mus musculus with 8 samples.

Results

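The genes described here encode the proteasome, the protease complex that degrades ubiquitin-tagged proteins, together with the exchangeable catalytic subunits of the immunoproteasome. They were taken from the gene symbol, as protein-coding genes whose symbol begins with Psma to Psmg followed by a number. The rule found 49 of the 19826 genes listed in the deposited table. A further matching gene of the annotation, Psmb11, was not among the genes listed there. RNA-seq had been performed on regulatory T cells (Treg), Foxp3-expressing CD4 T cells that hold other immune cells in check. The 4 libraries labelled Pdpk1 KO came from Foxp3 YFP-Cre/+ Pdpk1 FL/FL mice, and the 4 WT libraries came from Foxp3 YFP-Cre/+ Pdpk1 +/+ mice. Replicates 1 to 4 are called KO1 to KO4 and WT1 to WT4 below.

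All mice were untreated C57BL/6 animals, and both groups carried a Foxp3 allele that drives YFP and Cre recombinase. CD4+ YFP+ cells were sorted directly from spleen and peripheral lymph nodes, and polyadenylated RNA was sequenced. The Foxp3 gene lies on the X chromosome, and in the genotype Foxp3 YFP-Cre/+ the allele stood beside a wild-type copy. Treg without Cre therefore remained in the animals and were left out by the YFP sort. Neither ages nor the number of mice behind a library are given in the labels, so p-values measure only how far these libraries spread, which may be technical. Pdpk1 encodes PDK1, the kinase that activates AKT and related kinases downstream of PI3K.

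The proteasome is a barrel of alpha and beta rings with proteolytic sites inside, closed at its ends by caps. The regulatory cap binds ubiquitin chains, removes them and uses ATPases to unfold and feed the substrate into the barrel, while other activators open the gate without ATP. In lymphocytes the constitutive catalytic subunits Psmb5, Psmb6 and Psmb7 are in part replaced by Psmb8, Psmb9 and Psmb10, whose genes are induced by interferon gamma and whose products shape the peptides shown on MHC class I.

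Pdpk1 itself had 2505, 1900.1, 1872 and 1656 normalized counts in KO1 to KO4, against 2599.6, 2374, 1995 and 1923 in WT1 to WT4. The groups overlapped, and the log2 change was -0.17 (95% interval -0.452 to 0.111, limma adjusted p = 0.491). This value sums reads over the whole gene and does not check the labels, since the sources used here do not name the floxed exons. Of 7 Treg markers, 1 was higher, Il2ra, and 1 lower, Ikzf2, and Foxp3 stood at 4708 to 6340.5 normalized counts in KO1 to KO4 and at 4418 to 6098 in WT1 to WT4. Depth was 17448095 to 26299577 recovered reads per library. The summed level of 18 macrophage markers was 1820.2 to 5262 normalized counts in KO1 to KO4 and 946 to 2138 in WT1 to WT4. Of these markers 17 were tested, 9 were higher and 1, Cybb, was lower, and none was at 0 in every library, although Mertk was at 0 in WT1 and WT4. Cybb alone had 87 to 159 normalized counts in KO1 to KO4 and 516 to 668 in WT1 to WT4. In WT1, the library with the lowest sum, it gave 668 of the 946, so Cybb narrows the difference between the summed levels. The mean log2 level of the macrophage markers was highest in KO2, KO3 and WT2. Of 2 tested B cell markers Cd79b was lower, with a mean normalized count of 165 in KO1 to KO4 and 367 in WT1 to WT4, and Cd79a, with means of 83.2 and 48.2, did not pass. Cd79b carried most of the B cell marker sums, 156 to 305 in KO1 to KO4 and 354 to 528 in WT1 to WT4, and Ms4a1 was at 0 in 6 of the 8 libraries. The sums of dendritic cell markers and of CD8 T and NK cell markers overlapped between the groups. In bulk RNA fewer cells of a type and less RNA per cell cannot be told apart.

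Short stretches before the transcription start are shown for catalytic subunit genes, because the immunoproteasome genes and their constitutive partners answer to different regulators. Bases are from the RefSeq promoter table on GRCm38.p6, printed 5′ to 3′ on the gene's strand, and bases that GENCODE M21 places in an exon are left out, except around the Psmb8 match. Capitals mark a match to TTCNNNGAA, the letters of a STAT site, in Psmb8, and to TGACNNNGC or TGAGNNNGC, the letters of an antioxidant response element bound by the Nrf factors, in Psmb5 and Psmb6. The Psmb10 stretch held neither, and no match to the letters of a paired interferon regulatory factor site (GAAA, any 2 bases and GAAA).
Psmb8, chr17:34198088-34198116, plus strand: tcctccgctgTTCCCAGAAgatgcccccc
Psmb10, chr8:105938445-105938642, minus strand: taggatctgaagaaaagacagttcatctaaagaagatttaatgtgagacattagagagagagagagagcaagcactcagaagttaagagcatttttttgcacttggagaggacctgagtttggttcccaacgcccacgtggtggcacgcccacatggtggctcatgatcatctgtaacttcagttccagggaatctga
Psmb5, chr14:54618023-54618245, minus strand: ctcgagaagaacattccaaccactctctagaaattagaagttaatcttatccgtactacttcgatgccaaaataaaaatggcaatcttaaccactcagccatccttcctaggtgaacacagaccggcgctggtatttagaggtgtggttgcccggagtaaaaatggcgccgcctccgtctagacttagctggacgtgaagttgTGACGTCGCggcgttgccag
Psmb6, chr11:70525107-70525356, plus strand: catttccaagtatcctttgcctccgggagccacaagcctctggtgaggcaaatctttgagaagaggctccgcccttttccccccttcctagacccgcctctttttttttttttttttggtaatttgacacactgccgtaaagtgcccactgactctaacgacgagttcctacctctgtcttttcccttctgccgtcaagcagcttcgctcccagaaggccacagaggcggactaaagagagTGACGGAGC

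The Psmb8 match lay 97 to 89 bases before the RefSeq start, the Psmb5 match 47 to 39 bases and the Psmb6 match 9 to 1 bases before it. Windows of 250 bases before the start were available for 41 of the 49 genes, 44 windows in all, and were searched on both strands. The antioxidant response element letters stood in 14 of the 44 windows, or 31.8%, against 23% of all 32851 windows of that length. The paired interferon regulatory factor letters stood in 3, or 6.82%, against 2.98%, and the STAT letters in 2, or 4.55%, against 7.02%. The 3 windows with the paired letters were those of Psmb3, Psmd4 and Psmd9. Of the 3 windows of immunoproteasome genes 0 held the paired letters and 0 the antioxidant response element letters. The STAT letters stood in 1 of these, that of Psmb8. The Psmb9 window held no match to any of these letters, and no window was available for Psmb7. The motifs' letters can occur by chance and overlap other motifs, so a match is a description of the letters, and a missing match says only that they are not in the window. Psmb9 and Tap1, which encodes a subunit of the peptide transporter, are divergent neighbours whose RefSeq starts lie 226 bases apart, so their upstream windows are largely the same DNA.

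None of the tested proteasome genes passed the test between the groups. Of the 49 genes 48 passed the filter on low values. With KO1 to KO4 set against WT1 to WT4, 0 of these were higher and 0 lower (limma, adjusted p under 0.05 over all genes). Among all 13847 genes tested 611, or 4.41%, were higher and 700, or 5.06%, were lower, together 9.47%. The smallest adjusted p of a member was 0.157, for Psmf1. At an unadjusted p under 0.05 there were 2 members, Psmf1 and Psmc5, or 4.17%, against 23% of all genes. The 2 groups of libraries did not overlap for 2 members, Psmc5 and Psmd7, or 4.17%, against 15.3% of all genes. Under edgeR and DESeq2 the count was also 0 in either direction, where 9.06% and 12.9% of all genes were called.

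**Figure D1:**
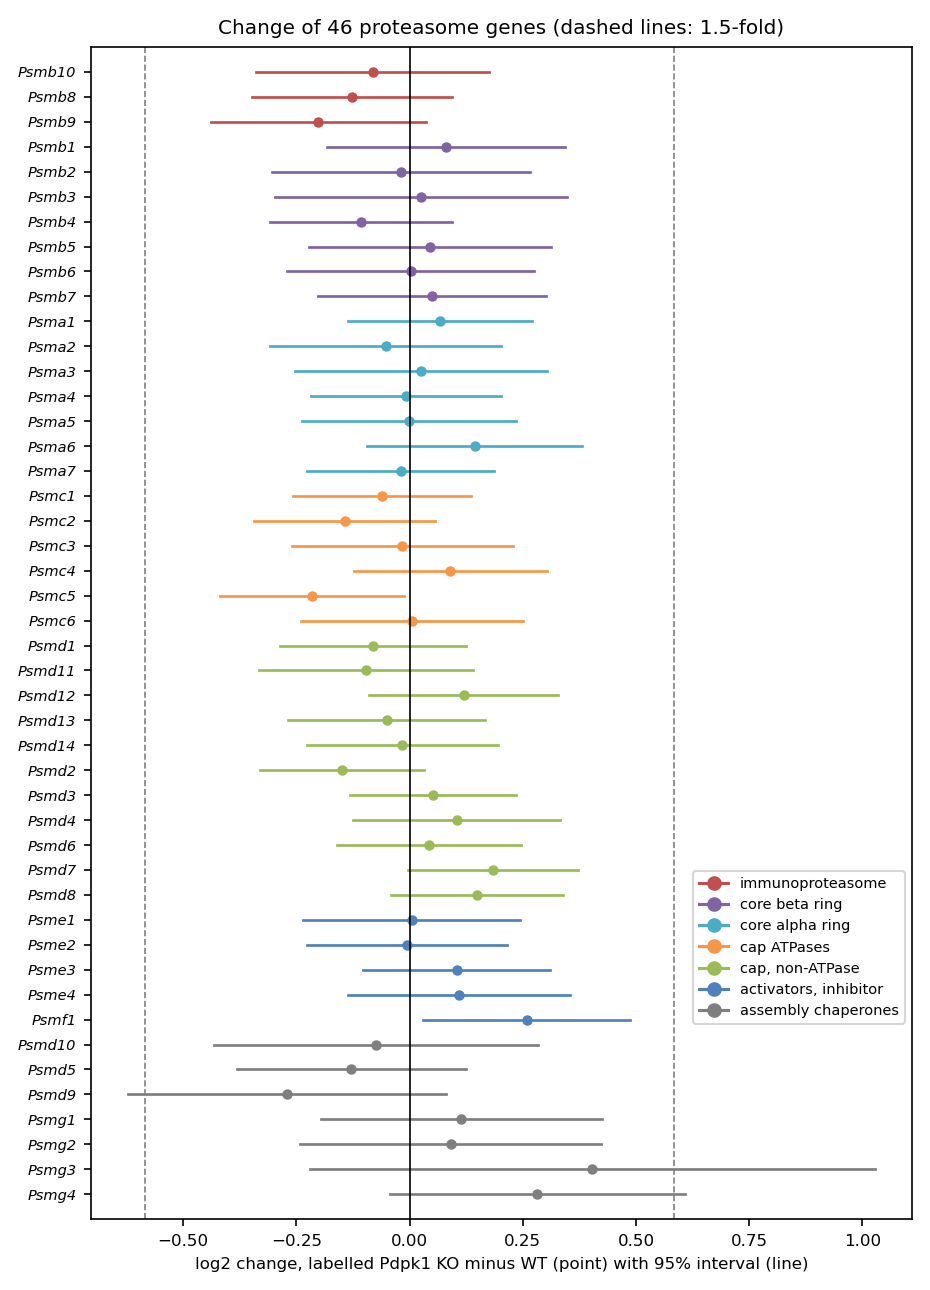
The log2 change (libraries labelled Pdpk1 KO minus WT, horizontal axis) of 46 proteasome genes with its 95% interval, ordered and coloured by role, with dashed lines at 1.5-fold in either direction. The intervals of 43 genes lie within the dashed lines, and those of Psmd9, Psmg3 and Psmg4 reach beyond them.

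The intervals of the differences were narrow. Psma8, Psmc3ip and Psme2b, which had few reads and are described last, were set aside for this count. For 43 of the other 46 genes the 95% interval lay within 1.5-fold of no change in both directions, and for 23 it lay within 1.25-fold. The 3 genes with wider intervals were the assembly chaperones Psmd9, Psmg3 and Psmg4. The median absolute log2 change was 0.0812 over the 46 genes and 0.154 over the 8204 other tested genes in the same range of mean level, from 187 to 8806 normalized counts. Of those 8204 genes 71.7% had an interval within 1.5-fold, 11.3% were called and 17.4% had groups that did not overlap. Over the 46 genes the standard deviation of the log2 changes was 0.130, against 0.378 over the 8204 genes. Members of 1 complex are not independent of each other, so these are descriptions and were not tested.

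The immunoproteasome subunit genes had lower means in the libraries labelled Pdpk1 KO than in WT, by amounts within the spread between libraries. Psmb8 (ENSMUSG00000024338, chromosome 17, 34197721 to 34201454, plus strand, in GENCODE M21 on GRCm38), which provides the chymotrypsin-like site, had 7799, 8463, 8054 and 9299 normalized counts in KO1 to KO4 and 7910.4, 8920.1, 10594 and 9410.3 in WT1 to WT4. WT3 was the highest of all and KO1 the lowest, and the groups overlapped. The means were 8404 ± 657 in the libraries labelled Pdpk1 KO and 9209 ± 1115 in WT (SD, n = 4 each), a log2 change of -0.13 (95% interval -0.348 to 0.093, limma adjusted p = 0.516, exact two-sided permutation p = 0.286). The smallest p that 4 libraries against 4 can give in that exact test is 0.0286.

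Psmb9 (ENSMUSG00000096727, chromosome 17, 34181987 to 34187764, minus strand), which takes the place of the caspase-like subunit, had 3221, 3356, 3329.9 and 4189 normalized counts in KO1 to KO4, against 3769, 3510.5, 4602 and 4336 in WT1 to WT4. KO4 alone among the libraries labelled Pdpk1 KO reached into the WT range. The means were 3524 ± 447 and 4054 ± 502 in the libraries labelled Pdpk1 KO and in WT (SD, n = 4 each), a log2 change of -0.20 (95% interval -0.439 to 0.036, limma adjusted p = 0.309, exact two-sided permutation p = 0.171). Exons of Psmb9 share 5.79% of their bases with Tap1, and with the strand setting unknown those reads cannot be assigned.

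Psmb10 (ENSMUSG00000031897, chromosome 8, 105935735 to 105938444, minus strand), the trypsin-like immunoproteasome subunit, had 3290.3, 4056, 3336 and 3976 normalized counts in KO1 to KO4 and 3252, 3802, 4853 and 3696 in WT1 to WT4. The highest value was again that of WT3, the lowest was that of WT1, and the groups overlapped. The means were 3664 ± 407 in the libraries labelled Pdpk1 KO and 3901 ± 678 in WT (SD, n = 4 each), with a log2 change of -0.08 (95% interval -0.339 to 0.176, limma adjusted p = 0.751, exact two-sided permutation p = 0.657). Without WT3 the log2 change of Psmb10 was 0.03. The median of the 3 immunoproteasome genes was -0.13 on the log2 scale, against -0.01 over all genes tested, and it was -0.06 without WT3.

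The constitutive partners had log2 changes closer to 0. Psmb5, the chymotrypsin-like subunit that Psmb8 replaces, had 1362, 1928, 1660.5 and 1698 normalized counts in KO1 to KO4 and 1435, 1754, 1852 and 1399.9 in WT1 to WT4. Psmb6, the caspase-like subunit that Psmb9 replaces, had 1969, 2479, 2341 and 2670.3 in KO1 to KO4 and 1892, 2217, 2794 and 2586 in WT1 to WT4. Psmb7, the trypsin-like subunit that Psmb10 replaces, had 1143, 1343, 1396 and 1076 in KO1 to KO4 and 1219.8, 1190.3, 1346 and 1028 in WT1 to WT4. The groups overlapped widely for all 3, with log2 changes of 0.05, 0.00 and 0.05 for Psmb5, Psmb6 and Psmb7 (limma adjusted p = 0.878, 0.994 and 0.857). The 95% intervals ran from -0.222 to 0.313 for Psmb5, from -0.270 to 0.275 for Psmb6 and from -0.202 to 0.302 for Psmb7. Reads of Psmb7 are uncertain in part because 11.8% of its exon bases overlap Nek6.

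**Figure D2:**
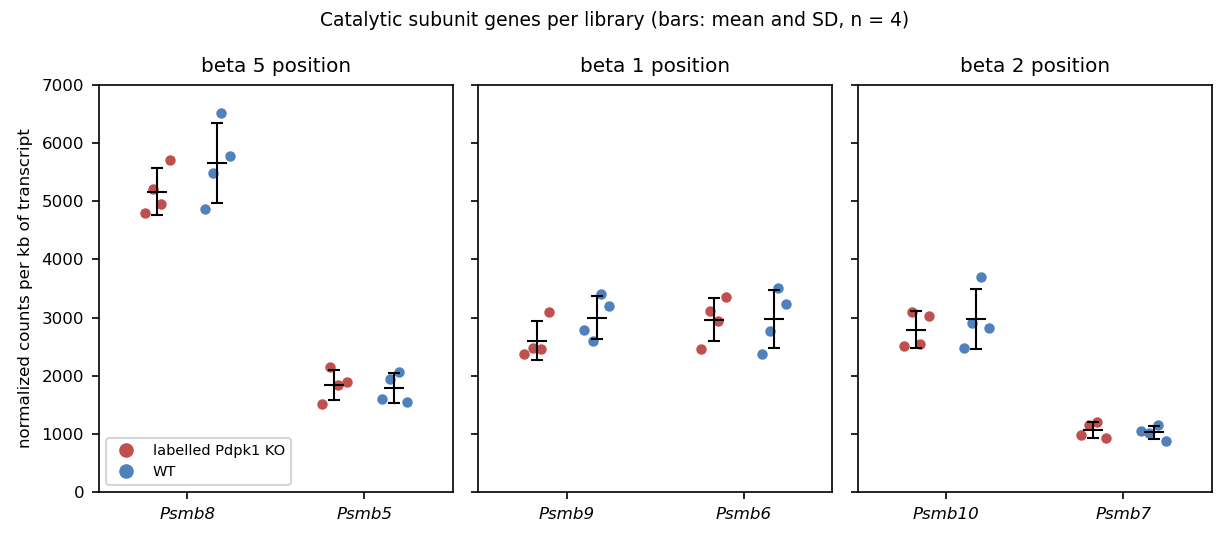
Normalized counts per kb of transcript (vertical axis) of each immunoproteasome gene beside the constitutive gene it replaces, for the 4 libraries labelled Pdpk1 KO (red) and the 4 WT libraries (blue), with the mean and SD as bars. Psmb8 and Psmb10 lie above Psmb5 and Psmb7 in every library, and Psmb9 and Psmb6 lie at like levels.

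Set per length of the principal transcript, the immunoproteasome gene gave the larger part of the pair at both the chymotrypsin-like and the trypsin-like site. Psmb8 made up 73.7 ± 2.34% of Psmb8 plus Psmb5 in the libraries labelled Pdpk1 KO and 75.9 ± 2.11% in WT (SD, n = 4 each). Psmb10 made up 72.3 ± 3.57% of Psmb10 plus Psmb7 in the libraries labelled Pdpk1 KO and 74.1 ± 2.77% in WT. At the caspase-like site the pair was close to even, and Psmb9 made up 46.8 ± 2.16% of Psmb9 plus Psmb6 in the libraries labelled Pdpk1 KO and 50.3 ± 2.54% in WT. Per library the Psmb9 share was 49.1, 44.4, 45.6 and 48.1% in KO1 to KO4, against 54.0, 48.3, 49.3 and 49.7% in WT1 to WT4. KO1 alone lay within the WT range, and WT1 stood above the other 7 libraries. The shares depend on the length used, and with the union of all annotated exons Psmb8 gave 57.5% in the libraries labelled Pdpk1 KO and 60.3% in WT.

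KO2 and KO3, the libraries labelled Pdpk1 KO with the highest macrophage markers, had the lowest Psmb8 shares, 70.8% and 72.8%, where KO1 and KO4 had 76.0% and 75.1%. They also had the lowest Psmb9 shares. WT2, the WT library highest in those markers, had the lowest WT share for Psmb8, 73.7%, and for Psmb9, 48.3%. The Psmb10 shares did not follow this order, with 71.8, 72.8, 67.9 and 76.6% in KO1 to KO4 and 70.2, 73.9, 76.1 and 76.1% in WT1 to WT4, so that KO3 was lowest of its group but KO2 and WT2 were not. The part of these markers in the shares was not tested. With the mean level of the macrophage markers in the model the log2 changes of Psmb8, Psmb9 and Psmb10 were -0.15, -0.08 and -0.14, and without KO2, KO3 and WT2 they were -0.12, -0.20 and -0.10, in neither case past the threshold.

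The constitutive core rings had log2 changes close to 0. Over the 7 beta ring genes the median was 0.03, and over the 7 alpha ring genes it was 0.00, with all 14 between -0.11 and 0.14 and none past the threshold. Psmb4, a beta subunit without a catalytic site, had 3909, 4572, 4375 and 4459 normalized counts in KO1 to KO4 and 4288, 4378, 5267 and 4751 in WT1 to WT4, a log2 change of -0.11 (limma adjusted p = 0.553). Psmb1, another noncatalytic beta subunit, had 3674, 5236, 4349 and 4796 in KO1 to KO4 and 3618, 4245, 5094 and 4106 in WT1 to WT4, a log2 change of 0.08 (limma adjusted p = 0.761). In both genes the groups overlapped, WT3 was the highest WT library and KO1 was the lowest library labelled Pdpk1 KO.

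Of the alpha ring, whose subunits form the gate, Psma2 and Psma7 had the highest mean counts. Psma7 had 2973, 3538, 3431 and 3308 normalized counts in KO1 to KO4 and 3075, 3094, 3693 and 3586 in WT1 to WT4, a log2 change of -0.02 (limma adjusted p = 0.932). Psma2 had 2667, 3393, 3265 and 3758 in KO1 to KO4 and 2895, 3263, 3997 and 3408 in WT1 to WT4, a log2 change of -0.05 (limma adjusted p = 0.847). The groups overlapped for both, and KO1 was the lowest library of all for each.

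The 6 ATPases of the cap base, which unfold the substrate, had a median log2 change of -0.04 and none passed the threshold. Psmc3 had 2895, 3928, 3826 and 3332 normalized counts in KO1 to KO4 and 3358, 3573, 4066 and 3105 in WT1 to WT4 (log2 change -0.02, limma adjusted p = 0.954). Psmc2 had 2014, 2469, 2195 and 2197 in KO1 to KO4 and 2445, 2317, 2656 and 2367 in WT1 to WT4 (log2 change -0.14, limma adjusted p = 0.405). Only KO2 reached the WT range for Psmc2. The ATPase Psmc5, chosen after its values were seen, had 1771, 2001, 1902 and 1842 in KO1 to KO4, against 2073, 2026, 2482 and 2167 in WT1 to WT4. Every library labelled Pdpk1 KO lay below every WT library, KO2 and WT2 lying closest. The means were 1879 ± 97.3 and 2187 ± 205 in the libraries labelled Pdpk1 KO and in WT (SD, n = 4 each), a log2 change of -0.22 (95% interval -0.419 to -0.013, limma adjusted p = 0.187).

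Among the 11 non-ATPase subunits of the cap the median log2 change was 0.04 and none passed the threshold. Psmd2, a scaffold of the base that binds ubiquitin-like shuttle proteins, had 4715, 4837, 4776 and 4386 normalized counts in KO1 to KO4 and 5207, 5249, 5538 and 4773 in WT1 to WT4 (log2 change -0.15, limma adjusted p = 0.33). WT4 alone lay within the range of the libraries labelled Pdpk1 KO. Psmd3, a scaffold of the lid, had 3082, 3258, 3394 and 3559 in KO1 to KO4 and 3323, 3193, 3024 and 3280.2 in WT1 to WT4 (log2 change 0.05, limma adjusted p = 0.784), with overlapping groups. Psmd7, the partner of the deubiquitinase Psmd14 in the lid and also chosen after its values were seen, had 2014, 2173, 1937 and 2191 in KO1 to KO4 and 1847, 1880.3, 1784 and 1797 in WT1 to WT4. All 4 libraries labelled Pdpk1 KO lay above the 4 WT libraries, with means of 2079 ± 124 and 1827 ± 44.6 (SD, n = 4 each) and a log2 change of 0.18 (95% interval -0.003 to 0.372, limma adjusted p = 0.226). The catalytic deubiquitinase Psmd14 itself had a log2 change of -0.02, and the ubiquitin receptor Psmd4 had 0.10 (limma adjusted p = 0.946 and 0.624).

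Psme1 and Psme2, the interferon-inducible activator subunits that form a ring on the core, had log2 changes close to 0. Psme1 (chromosome 14, 55578123 to 55581529) had 7507, 8758, 8718 and 9479 normalized counts in KO1 to KO4 and 7238, 8027, 9929 and 9308 in WT1 to WT4, a log2 change of 0.00 (95% interval -0.235 to 0.244, limma adjusted p = 0.988). Psme2 (chromosome 14, 55587441 to 55591113) had 4781, 5464, 5363 and 5492 in KO1 to KO4 and 4655, 5370.0, 6328 and 4949 in WT1 to WT4, a log2 change of -0.01 (95% interval -0.227 to 0.214, limma adjusted p = 0.981). For both genes WT1 was the lowest library of all and WT3 the highest, so the WT libraries enclosed all 4 libraries labelled Pdpk1 KO.

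Psme3, a nuclear activator, had 3586, 3688, 2920.1 and 3237 normalized counts in KO1 to KO4 and 3189, 3345, 3050.0 and 2882 in WT1 to WT4 (log2 change 0.10, limma adjusted p = 0.581). Psme4, a large single-chain activator, had 1671, 1604, 1351 and 1537 in KO1 to KO4 and 1703, 1461, 1236 and 1336 in WT1 to WT4 (log2 change 0.11, limma adjusted p = 0.634). The groups overlapped in both. Psmf1, a protein that inhibits the isolated core in vitro, was chosen after its values were seen and had 1046, 1169, 1168 and 1261 in KO1 to KO4 against 947, 928, 1098 and 911 in WT1 to WT4. WT3 alone reached into the range of the libraries labelled Pdpk1 KO, and the log2 change of 0.26 (95% interval 0.031 to 0.486) had a limma adjusted p of 0.157.

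The 7 assembly chaperones, which help build the rings and the base and then leave, had a median log2 change of 0.09. Most of them had lower counts and wider intervals than the other roles, but Psmd5 did not stand apart in this way. Psmd5, a chaperone of the base, had 976, 1282, 1144 and 923 normalized counts in KO1 to KO4 and 1074, 1188, 1258 and 1174 in WT1 to WT4 (log2 change -0.13, limma adjusted p = 0.573). Psmg1, a chaperone of the alpha ring, had 485, 684, 537 and 612 in KO1 to KO4 and 478, 544, 632 and 482 in WT1 to WT4 (log2 change 0.11, limma adjusted p = 0.702). The groups overlapped in both genes. The widest interval was that of Psmg3, the member of lowest count among the 46, with 153 to 265 normalized counts in KO1 to KO4 and 91.3 to 249 in WT1 to WT4 (log2 change 0.40, 95% interval -0.220 to 1.027, limma adjusted p = 0.456).

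The other 3 symbols that the rule takes had few reads. Psmc3ip, a factor of homologous pairing in meiosis and no proteasome subunit, had 67, 85.5, 38.2 and 29 normalized counts in KO1 to KO4 and 47.3, 99, 101 and 55.3 in WT1 to WT4 (log2 change -0.50, limma adjusted p = 0.52). Psme2b had 26.1, 8.77, 12.3 and 27.3 in KO1 to KO4 and 25.9, 5.21, 1.84 and 19.3 in WT1 to WT4 (log2 change 0.84, limma adjusted p = 0.587), and as a near copy of Psme2 its reads are uncertain. The groups overlapped for both. Psma8, an alpha subunit known from testis, had 19 reads over the 8 libraries, did not pass the filter and was not tested.

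Per length of the principal transcript the interferon-inducible genes Psme1, Psme2 and Psmb8 were the most abundant of the 46 genes. Psme1 was highest with 7748 normalized counts per kb in the libraries labelled Pdpk1 KO and 7757 in WT, followed by Psme2 with 5483 and 5536 and by Psmb8 with 5162 and 5656. The difference in level between Psme2 and Psmb8 was within the spread between libraries in WT. Psmb4 had 3659 normalized counts per kb in the libraries labelled Pdpk1 KO and 3948 in WT, Psma7 had 3624 and 3678, and Psmb3 had 3591 and 3533. Psmb10, with 2795 and 2976, and Psmb9, with 2607 and 2999, stood below these. The levels depend on the length used, and with the union of all annotated exons Psmb8 had 2486 and 2724. At the low end stood Psme4 with 237 in the libraries labelled Pdpk1 KO and 221 in WT, and Psmd9 with 187 and 221. The ATPases of the base lay between 663 and 2137 in the libraries labelled Pdpk1 KO and between 661 and 2155 in WT.

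**Figure D3:**
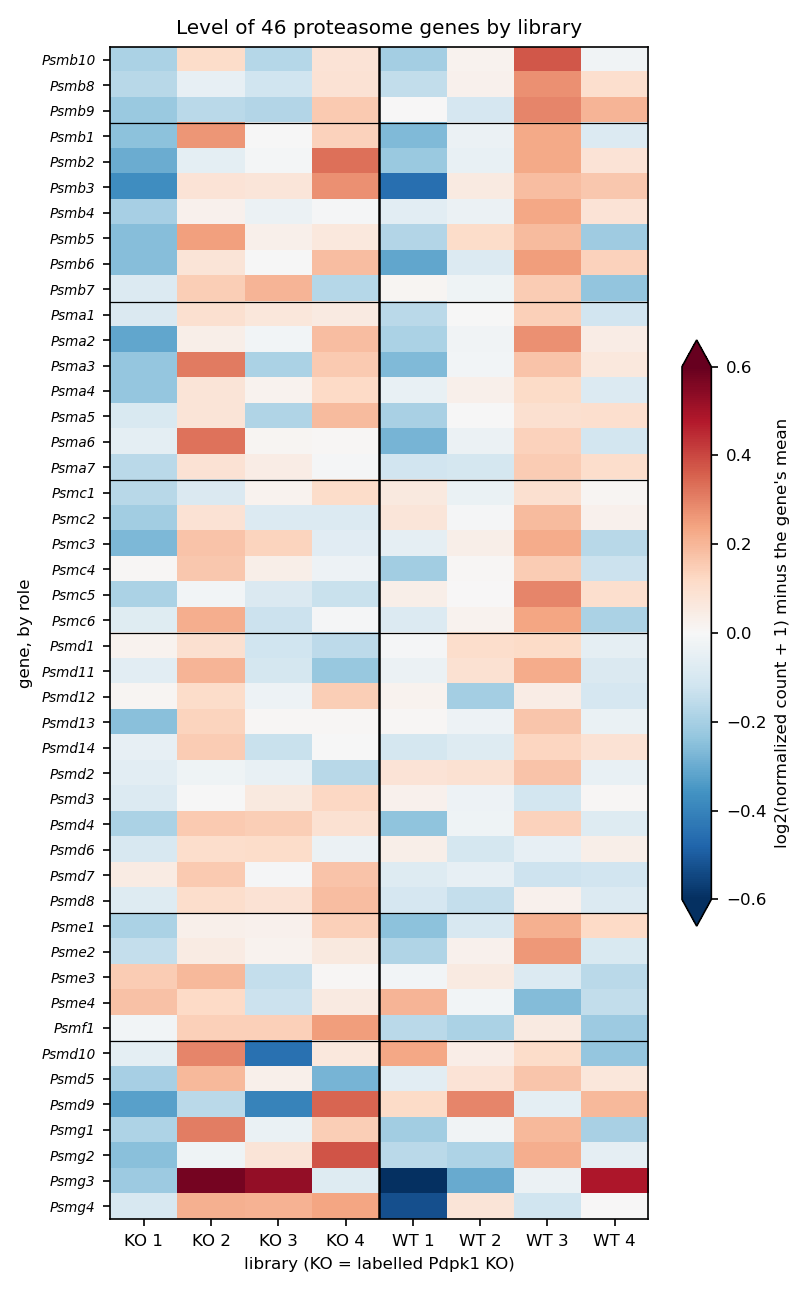
Level of 46 proteasome genes (rows, grouped by role) in the 4 libraries labelled Pdpk1 KO and the 4 WT libraries (columns), as log2(normalized count + 1) minus the gene's mean over the 8 libraries. WT3 is high and KO1 and WT1 are low for most genes, with median deviations of 0.177 in WT3, -0.139 in KO1 and -0.116 in WT1 from their group's mean.

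In some libraries of each group most genes of the complex stood on the same side of the group's mean. KO1 was below its group's mean for 42 of the 46 genes, with a median deviation of -0.139 on the log2 scale, and was the lowest of its group for 31. KO2 was above the mean for 40 genes and the highest of its group for 24. WT3 was above its group's mean for 40 genes, with a median deviation of 0.177, and was the highest of its group for 36, while WT1 was below the mean for 35 and the lowest for 22. KO4 was above the mean for 32 genes. The remaining libraries were more even, with 24 genes above the mean in KO3, 22 in WT2 and 18 in WT4. Over the 8204 genes of like level the median deviations lay between -0.0148 and 0.0266 in the 8 libraries. Size factors level the libraries over most genes, so small medians in so broad a set follow from the scaling. That comparison therefore cannot show whether the shifts of the proteasome genes are unusual. Other gene sets of the same size were not examined. Among the 17 core and immunoproteasome genes KO1 was below its group's mean for 17 and WT3 was above it for 17. In KO1 and WT3 the 17 cap genes deviated less, with medians of -0.0840 and 0.119 against -0.1529 and 0.1995. This did not hold in every library, and in KO2 the cap median was 0.105 against 0.0814. The median log2 change of the 46 genes between the groups was 0.00, smaller than these shifts between libraries of 1 group.

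As a share of all recovered reads the 46 genes gave 0.492, 0.528, 0.510 and 0.543% in KO1 to KO4, against 0.545, 0.544, 0.595 and 0.569% in WT1 to WT4. The groups did not overlap, although KO4 and WT2 nearly met, and the means were 0.518 ± 0.0220% and 0.563 ± 0.0239% in the libraries labelled Pdpk1 KO and in WT (SD, n = 4 each). This share is not on the scale of the authors' size factors. Scaling to total reads moved the median log2 change of all genes tested to -0.11 and that of the members to -0.11, and relative to all genes the members stood at 0.00896. On that scale 1 member, Psmc5, passed the threshold (log2 change -0.32, limma adjusted p = 0.0338), where 360 of all genes were higher and 1054 lower.

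Genes that act with the proteasome without being named by the rule were also counted. Of 15 tested proteasome-associated genes, which include shuttle factors, deubiquitinases and assembly factors, 0 were higher and 0 lower, with a median log2 change of 0.07. Ubqln1, a ubiquitin shuttle, had 3611, 4043, 3387 and 3086 normalized counts in KO1 to KO4 and 3020.1, 3975, 3401 and 3052 in WT1 to WT4 (log2 change 0.07, limma adjusted p = 0.758). Rad23b, another shuttle, had 3314, 3545, 3404 and 3055 in KO1 to KO4 and 2902, 2938, 2998 and 2560.1 in WT1 to WT4 (log2 change 0.23, limma adjusted p = 0.145). All 4 libraries labelled Pdpk1 KO lay above the 4 WT libraries for Rad23b, and the groups overlapped for Ubqln1. Of the 6 genes for ubiquitin precursors and the activating enzymes 0 passed in either direction. Rps27a, a ubiquitin fusion with a ribosomal protein, had 22267, 33526, 32252 and 32097 in KO1 to KO4 and 16874, 23549, 26739 and 22469 in WT1 to WT4 (log2 change 0.42, limma adjusted p = 0.107), and Ubb had a log2 change of -0.06 (limma adjusted p = 0.781). Rps27a passed the threshold under DESeq2 (adjusted p = 0.0327) and without KO1 (limma adjusted p = 0.018), and its reads are uncertain because ribosomal protein genes have near-identical pseudogenes.

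Nrf1, encoded by Nfe2l1, is the membrane-bound factor that raises proteasome genes when the proteasome is blocked, after Ngly1, Ddi2 and Vcp have released it. The list holds 13 genes, those of Nrf1 release together with related factors that bind the same sites. Of these 4 were higher and 0 lower, where 4.41% of all genes tested were higher and 5.06% lower. Nfe2l1 itself did not pass (log2 change -0.10, limma adjusted p = 0.606), nor did Ddi2 (0.04, limma adjusted p = 0.857) or Vcp (-0.04, limma adjusted p = 0.827). Maff, a small partner protein of the Nrf and Bach factors, had 172, 144, 173 and 148 normalized counts in KO1 to KO4 against 75.5, 69.8, 55.2 and 65.9 in WT1 to WT4, a log2 change of 1.25 (limma adjusted p = 0.00413). Ngly1, the glycan-removing enzyme, had 2181, 1805, 1957 and 1548 in KO1 to KO4 and 1449, 1232, 1388 and 1318 in WT1 to WT4, a log2 change of 0.47 (limma adjusted p = 0.0156). In both genes every library labelled Pdpk1 KO lay above every WT library.

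Nfe2l2, which encodes the oxidative stress factor Nrf2, had 1317, 1214, 1034 and 1112 normalized counts in KO1 to KO4 and 875, 913, 817 and 859.8 in WT1 to WT4, a log2 change of 0.43 (limma adjusted p = 0.0204). Bach1, a repressor that competes for the same sites, had 929, 878, 917 and 836 in KO1 to KO4 and 759, 687, 583 and 644 in WT1 to WT4, a log2 change of 0.42 (limma adjusted p = 0.0323). The groups did not overlap for either gene. None of the 4 passed with the macrophage marker level in the model (log2 changes of 1.27, 0.56, 0.43 and 0.44 for Maff, Ngly1, Nfe2l2 and Bach1, adjusted p = 0.0719, 0.0726, 0.179 and 0.214) or without KO2, KO3 and WT2 (log2 changes of 1.29, 0.41, 0.51 and 0.42, adjusted p = 0.0819, 0.255, 0.108 and 0.269). The mean log2 level of those markers was 5.692 to 7.585 in KO1 to KO4 and 3.341 to 6.287 in WT1 to WT4. Group and marker level therefore cannot be fully told apart in that model, and whether macrophage RNA plays a part was not tested. Bach1 also failed to pass when any of WT2, WT3, WT4, KO1, KO2 or KO3 was left out, Nfe2l2 without WT3, WT4, KO1 or KO2, and Ngly1 without WT2 or KO3 (adjusted p between 0.0532 and 0.0956). With those libraries left out the log2 changes were 0.36 to 0.43 for Bach1, 0.37 to 0.42 for Nfe2l2 and 0.42 and 0.44 for Ngly1, near those with all 8 libraries.

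**Figure D4:**
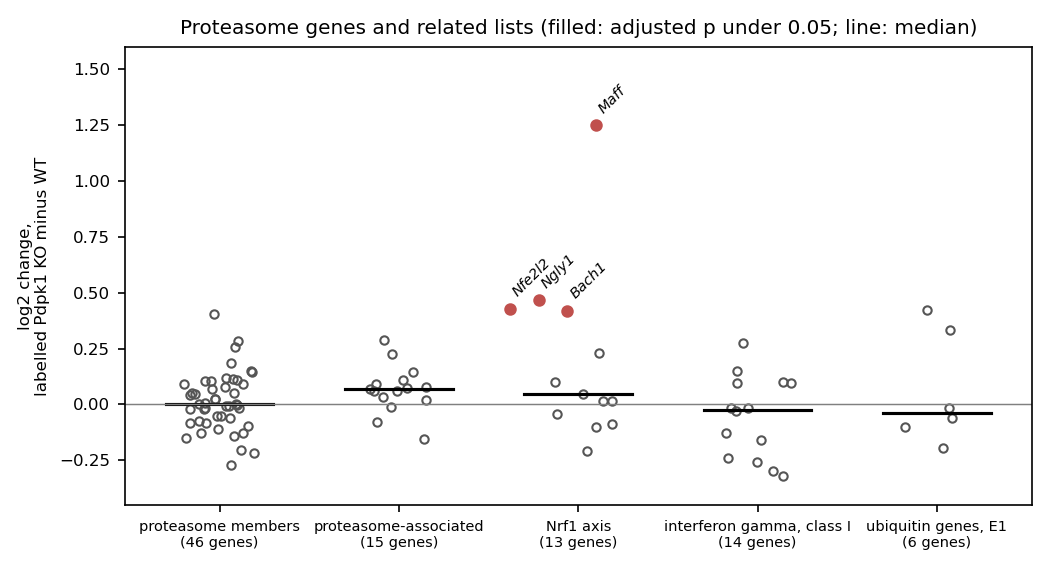
The log2 change (libraries labelled Pdpk1 KO minus WT, vertical axis) of 46 proteasome genes and of 4 lists of related genes, with filled points for an adjusted p under 0.05 and a line at each median. The 4 filled points, Maff, Ngly1, Nfe2l2 and Bach1, all stand in the list drawn up around Nrf1, which also holds Nrf2, Bach1 and their small partner proteins.

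Among 14 genes of the interferon gamma response and the class I pathway, which share regulators with the immunoproteasome genes, 0 were higher and 0 lower and the median log2 change was -0.02. B2m, the light chain of MHC class I, had 47149, 64530.4, 54655 and 60076 normalized counts in KO1 to KO4 and 45341, 58088, 72204 and 57209 in WT1 to WT4 (log2 change -0.03, limma adjusted p = 0.932). WT3 was the highest and WT1 the lowest library for B2m, as they were for Psme1. Pdia3, a chaperone of peptide loading, had 10489, 12775, 11407 and 10068 in KO1 to KO4 and 11248, 12448, 14867 and 11447 in WT1 to WT4 (log2 change -0.16, limma adjusted p = 0.444). Tap1, the divergent neighbour of Psmb9, had 9939, 8208, 8228 and 10050.4 in KO1 to KO4 and 10278, 9721, 9928 and 9637 in WT1 to WT4 (log2 change -0.13, limma adjusted p = 0.488). KO2 and KO3 were the lowest libraries for Tap1 and the groups overlapped.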

How the data were processed

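Polyadenylated RNA of sorted CD4+ YFP+ cells was sequenced in 4 libraries labelled Pdpk1 KO and 4 WT libraries. The deposited signal values, which the authors named DESeq2-normalized counts, are in each library whole multiples of its smallest positive value, as read counts per gene divided by 1 size factor per library would be. Tools named in the submitters' processing notes were Trimmomatic 0.39, STAR 2.7.6a, SAMtools 1.11, featureCounts, Subread 2.0.1 and DESeq2 1.21, with the build GRCm38. For strand and annotation release the setting was not given in the sources used here. Whole reads were recovered from these steps, and 100% of the values came out whole within 0.001 reads. Every listed gene had at least 11 reads in total. Of 19826 gene IDs 19785 matched a symbol in GENCODE M21 and 41 did not.

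Genes with a normalized count of 10 or more in at least 4 libraries were tested on log2(normalized count + 1), which understates the change of low genes, with limma 3.58.1 in R 4.3.3 (lmFit, eBayes with trend). Tests were two-sided, without a replicate term, with Benjamini-Hochberg adjustment over all genes at 0.05. As alternatives edgeR 4.0.16 and DESeq2 1.42.0 were run on the recovered reads, along with other pseudocounts, filters, scalings, a macrophage marker covariate, the replicate block and each library left out. The fits were tested on simulated data. Tables were made with Python 3.11.15, pandas 2.3.3 and numpy 2.4.6. Lengths are those of GENCODE transcripts, and 9 members share exon bases with another listed gene, 3 of them 10% or more (Psmb7, Psmd13 and Psmc3ip).

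The members and lists were chosen with earlier results of these data known. Named were the catalytic genes with their partners, Psme1 and Psme2, and from every other role and list up to 4 genes past the threshold or, where none passed, the 2 with the highest mean. Psmc5, Psmd7, Psmf1 and Tap1, and the other genes given only by a value or a range, were named after their values were seen.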

Additional observations from a re-analysis of the deposited data

Results flagged for a closer look

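Of 102 groups of 4 libraries examined, 3 held a library set apart from the other 3 by most of the group's range, where chance flags about 1 in 20 groups, or 5.1 here. Psmb9 stood at 4189 normalized counts in KO4, against 3221 to 3356 in the other libraries labelled Pdpk1 KO. Psma6, a subunit of the alpha ring, stood at 3303 in KO2, against 2528 to 2656 in the other libraries labelled Pdpk1 KO. Psmg4, an assembly chaperone, stood at 480.4 in KO1, against 594 to 604 in the other libraries labelled Pdpk1 KO. No WT library was set apart in this way.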

How the results depend on the processing

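Psmc5 under scaling to total reads was the only member past the threshold in any of the 20 alternatives. That scaling, the removal of the 3 libraries highest in macrophage markers (KO2, KO3 and WT2) and the exon union lengths were chosen after seeing the data. Members called lower numbered 1 under scaling to total reads and 0 in the other alternatives, and 0 were called higher in all of them. Among all genes the higher and lower calls were 199 and 263 with the macrophage covariate, 167 and 305 when the 3 libraries were removed, 360 and 1054 under scaling to total reads, and 389 to 588 and 495 to 724 with 1 library left out.

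Deviations from the group's mean correlated between same-numbered libraries at 0.217, 0.0921, 0.0481 and 0.113 for replicates 1 to 4. Libraries of unlike number were not compared in this way, so whether the replicate numbers mark pairs was not tested. With the replicate block 1243 genes were higher and 1292 lower, together 18.3%, and 0 members in either direction, with a smallest member adjusted p of 0.0713 for Psmf1. Members with an unadjusted p under 0.05 then numbered 6. The share of all genes at that unadjusted threshold was not computed with the block, so the count alone says nothing about the members. With the block Rad23b (limma adjusted p = 0.0279) and Rps27a (limma adjusted p = 0.000222) passed.

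Scaling to total reads shifted all genes, to a median log2 change of -0.1143, and every role of the complex with them. The medians were then -0.1053 for all members tested, -0.2359 for the immunoproteasome genes, -0.0824 for the beta ring, -0.1101 for the alpha ring, -0.1474 for the ATPases, -0.066 for the other cap subunits, -0.0049 for the activators and inhibitor and -0.0181 for the chaperones. For the other cap subunits the median was -0.0352 with the covariate and -0.0612 without the 3 libraries, and with 1 library left out it was 0.0566 to 0.1689 for the activators and inhibitor and -0.1977 to -0.0572 for the immunoproteasome genes. With exon union lengths the immunoproteasome share in the libraries labelled Pdpk1 KO and in WT was 57.5% and 60.3% for Psmb8, 43.3% and 46.8% for Psmb9, and 85.5% and 86.6% for Psmb10.

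Signs turned only where changes were small, and the cause was not tested. With the macrophage covariate the log2 change was -0.1497 for Psmb5, -0.0842 for Psmb6, -0.0409 for Psmb7, -0.0448 for Psme1, -0.0636 for Psmb1, -0.0047 for Psmg1 and -0.1479 for Ubqln1. Without the 3 libraries it was -0.0269 for Psmb5, -0.0603 for Psmb6, -0.1022 for Psmb7, -0.0521 for Psme1 and -0.0109 for Psmb1. Scaled to total reads, where the shift of all genes by itself turns small positive changes, it was -0.0632 for Psmb5, -0.1062 for Psmb6, -0.0589 for Psmb7, -0.1044 for Psme1, -0.0284 for Psmb1, -0.0576 for Psmd3, -0.0049 for Psme3 and -0.0355 for Ubqln1. Quantile normalization gave -0.0328 for Psmb6, -0.0514 for Psme1 and -0.0070 for Psmd3, and edgeR and DESeq2 gave -0.0028 and -0.0031 for Psmb6. With 1 library left out the log2 change ran from -0.0295 to 0.1374 for Psmb5, -0.1011 to 0.0874 for Psmb6, -0.0207 to 0.1148 for Psmb7, -0.1638 to 0.0287 for Psmb10, -0.0764 to 0.0755 for Psme1, -0.0677 to 0.08 for Psme2, -0.0607 to 0.0315 for Psma7, -0.1259 to 0.0412 for Psma2, -0.0755 to 0.0713 for Psmc3 and -0.1444 to 0.0793 for B2m. Quantile normalization also called B2m lower (-0.41, adjusted p = 0.00253), and scaling to total reads ended the calls of Ngly1, Nfe2l2 and Bach1 (adjusted p = 0.0928, 0.111 and 0.163).

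With 4 libraries a group, differences smaller than the intervals given were not detectable, and widest are those of the low genes Psmg3, Psmc3ip and Psme2b. Reads carry no molecular identifiers here.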
